A study of Mus musculus with 19 samples.

Results

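The 6 libraries described here are whole hippocampus RNA of mice on day 80 after a bone marrow transplant, taken as every library titled hippocampus among the 19 of the series. There were 3 libraries of mice with chronic graft-versus-host disease (GVHD 1, 2 and 3) and 3 of recipients of T-cell-depleted marrow alone (TCD 1, 2 and 3). All recipients had split-dose total-body irradiation of 1100 cGy and 5000000 T-cell-depleted marrow cells, and the GVHD mice also had 500000 splenic T cells. The TCD mice are therefore irradiated, transplanted controls, and no untreated hippocampus is part of the comparison. Strain, sex and age are not given in the labels, nor is the RNA kit used for each library. The other 13 libraries are donor macrophages and host microglia sorted from brains on day 70, in a table that was normalised separately.

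In chronic GVHD, T cells that come with the graft attack tissues of the host over weeks, and interferon-gamma released by such cells is a main inducer of antigen presentation genes. Brain cells respond to interferon-gamma by switching on GTPases that attack intracellular pathogens, MHC class I molecules, and in myeloid cells MHC class II molecules. The choroid plexus is a secretory epithelium in the ventricles that makes cerebrospinal fluid, and it lies against the hippocampus along the choroidal fissure.

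The libraries held an estimated 16673616 to 18546935 reads in genes, and the lowest correlation of any library with another of its group was 0.982 on the log2 scale. A single read was worth an estimated 0.0540 to 0.0612 of a normalised value. Differences below are log2 differences of normalised value plus 1, GVHD minus TCD, with the standard error (SE), and a gene passed the test at a limma adjusted p (Benjamini-Hochberg) under 0.05 over 14404 tested genes. Adding 1 understates the fold of genes with low values. In all, 46 genes rose (0.319% of those tested) and 23 fell (0.16%), with 2449 at an unadjusted p under 0.05. Under quantile normalisation 30 rose and 9 fell. No gene passed without GVHD 3 (884 higher and 944 lower at an unadjusted p under 0.05) or without TCD 2 (997 and 969), 1 rose and 1 fell without GVHD 1, 46 rose and 3 fell without GVHD 2, and 59 rose and 64 fell without TCD 3. The groups did not overlap in any of the 69 genes that passed, nor in 24.0% of all tested genes. The series' design text counts mice, but nothing else says that each library came from its own animal, so p-values measure the spread between these libraries.

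Genes that mark hippocampal fields were present in every library. Prox1, a transcription factor of dentate granule cells, had values of 97.9, 83.8 and 122 against 97.6, 81.9 and 58.7 (GVHD 1, 2 and 3 against TCD 1, 2 and 3, the order used throughout). Wfs1, a marker of CA1 pyramidal cells, had 203, 198 and 147 against 191, 209 and 212. The 8 CA1 genes tested had a median difference of -0.06, the 6 CA2 genes 0.03, the 7 CA3 genes -0.22 and the 10 dentate gyrus genes 0.01, and none passed the test. Over all tested genes the median was 0.00. The CA3 genes varied most within the controls: Homer3, which is high in CA3, had 33.3, 34.5 and 32.7 against 78.5, 42.5 and 30.7. Among the TCD libraries, 6 of the 7 CA3 genes were highest in TCD 1, as were 5693 of all 14404 tested genes.

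**Figure D1:**
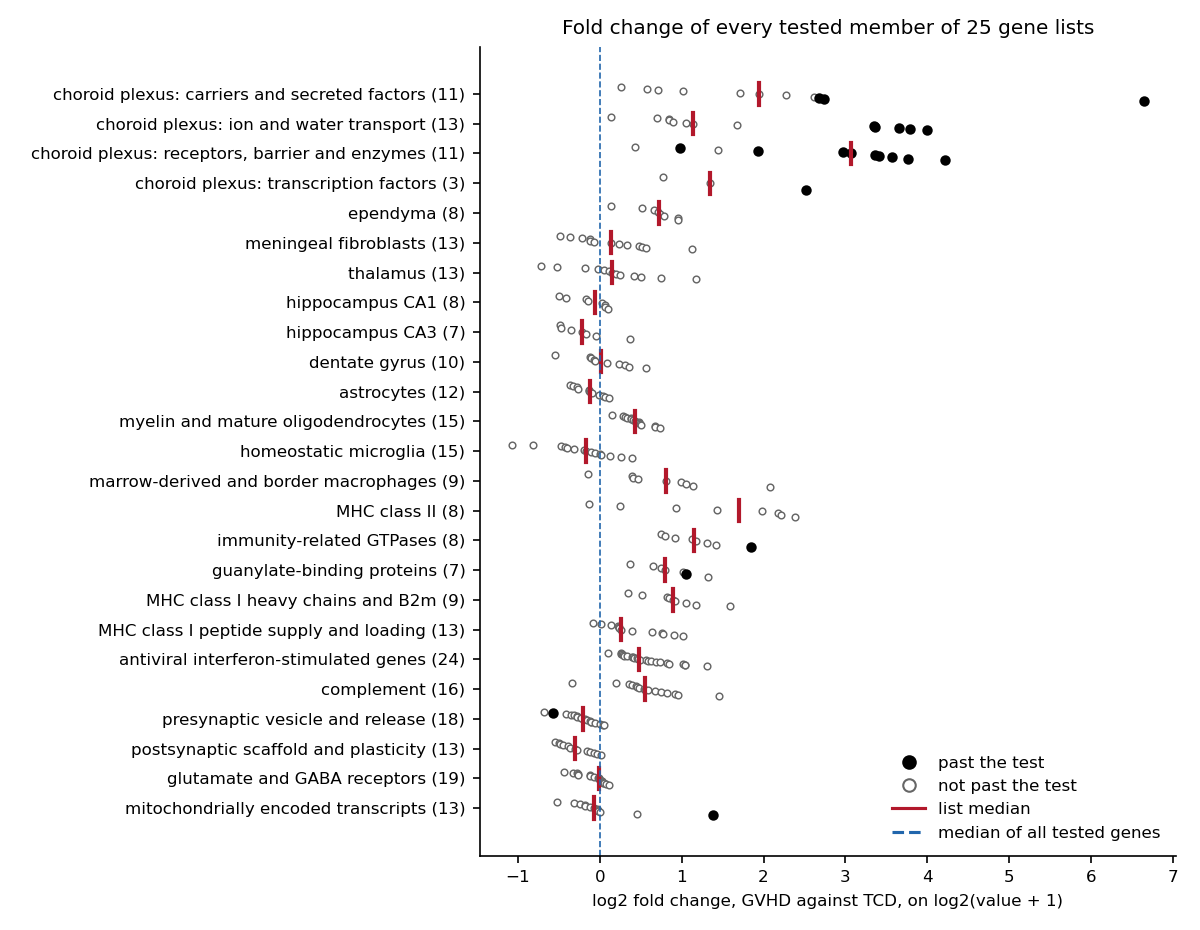
Log2 fold change of GVHD against TCD (x axis) for each tested member of 25 gene lists (y axis, number of tested members in brackets). Filled points passed the test, open points did not, red bars are list medians and the dashed line is the median of all tested genes; the 4 choroid plexus lists hold 18 of the 46 genes that rose.

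The largest rises were in genes of the choroid plexus. All 38 tested genes of 40 in 4 choroid plexus lists were higher in GVHD, with a median difference of 1.94, and 18 rose (0.319% of all tested genes did). Of the 38, 7 reached the filter (a value of at least 1 in 3 libraries) through the GVHD libraries alone and so had to be higher there. The other 31 genes had a median of 1.45, with 12 rises. The summed normalised value of the 38 genes was 5919, 2377 and 6797 in the GVHD libraries and 780, 798 and 688.9 in the TCD libraries. The GVHD libraries thus all lay above the TCD libraries, with GVHD 2 between the other GVHD libraries and the controls. In bulk tissue, more cells of a type and more RNA per cell cannot be told apart, and no measure of how much choroid plexus each sample contained is among the data.

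Among carriers and secreted factors, 3 of 11 rose. Ttr, which encodes the thyroxine and retinol carrier transthyretin, had values of 2867, 912 and 3278 against 59.3, 15.9 and 7.34, and GVHD 2 was the lowest GVHD library while still far above every TCD library. Ttr rose by 6.65 ± 0.70 (SE; limma adjusted p = 0.016), and without GVHD 1, GVHD 3 or TCD 2 its adjusted p was 0.0933 to 0.0994. Enpp2, which encodes autotaxin, an enzyme that makes lysophosphatidic acid, had 1367, 572 and 1615 against 157, 178 and 149, and rose by 2.74 ± 0.33 (SE; limma adjusted p = 0.0196). Sostdc1, an antagonist of BMP and Wnt signalling, had 27.6, 12.2 and 32.1 against 3.61, 2.38 and 2.08 and rose by 2.67 ± 0.33 (limma adjusted p = 0.0196). Kl, which encodes the FGF23 co-receptor klotho, had 156, 61.8 and 188 against 38.8, 21.8 and 17.3 without passing (2.27 ± 0.41, adjusted p = 0.0577), and Igf2 had 219, 82.8 and 232 against 34.3, 59.8 and 56.6 (1.71 ± 0.37, adjusted p = 0.0821). In both of these genes the groups did not overlap, and GVHD 2 was again the nearest to the controls. Cp, the copper oxidase ceruloplasmin, which astrocytes also make, overlapped between the groups at 24.8, 18.2 and 22.9 against 14.8, 23.3 and 17.

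Among 13 ion and water transport genes, 5 rose, with a list median of 1.14. Aqp1, the apical water channel of the epithelium, had 17.4, 5.903 and 19.3 against 0.756, 0.178 and 0.183 and rose by 3.35 ± 0.39 (limma adjusted p = 0.0188). Kcnj13, a potassium channel, had 22.9, 9.04 and 28.6 against 0.621, 0.831 and 1.22 and rose by 3.36 ± 0.36 (adjusted p = 0.0161). Kcne2, a potassium channel subunit, had 20.5, 7.83 and 23.5 against 0.407, 0.178 and 0.0612. Clic6, a chloride channel family member, had 46.7, 18.96 and 63.8 against 2.27, 1.49 and 0.856, and Slc4a5, a sodium bicarbonate cotransporter, had 20.5, 8.004 and 26.4 against 1.16, 0.237 and 0. All of these 5 genes were near 0 in the controls, at or below 2.27. Transporters that neurons or glia also express differed less: Slc12a2, the sodium-potassium-chloride cotransporter, had 116, 96.2 and 134 against 62.8, 83.4 and 65.1 and did not pass (0.70 ± 0.14, adjusted p = 0.0698), and Atp2b3, a plasma membrane calcium pump, overlapped between the groups at 162, 145 and 172 against 174, 134 and 129.

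Receptors, junction proteins and enzymes of the epithelium had a median difference of 3.06, and 9 of 11 rose. F5, coagulation factor V, had 47.7, 16.7 and 50.04 against 1.69, 0.297 and 0.978, a rise of 4.21 ± 0.41 (limma adjusted p = 0.0143). Prlr, the prolactin receptor, had 59.1, 34.5 and 76.4 against 5.64, 3.03 and 2.69. Cldn2, the pore-forming claudin of the blood-cerebrospinal fluid barrier, had 18.2, 5.17 and 22.1 against 0.9305, 0.9501 and 0.245 and rose by 3.06 ± 0.45 (adjusted p = 0.0384), while Cldn1 had 16.3, 13.1 and 13.2 against 1.45, 7.07 and 7.58 and did not pass (1.45 ± 0.42, adjusted p = 0.149). For Cldn1 the controls differed among themselves, with TCD 1 below the other TCD libraries. The remaining rises were Mfrp at 36.3, 11.1 and 44.3 against 1.01, 1.74 and 0.484, Tmem72 at 14.5, 3.97 and 20.1 against 0.349, 0 and 0, Folr1, the folate receptor, at 17.9, 4.71 and 20.9 against 0.233, 0.416 and 0.245, and Col8a1, a collagen chain, at 23.98, 8.34 and 24.99 against 1.16, 0.9501 and 1.96. Ace, angiotensin-converting enzyme, rose by 1.93 ± 0.29 and Cab39l, a partner of the kinase LKB1, by 0.98 ± 0.16, the smallest rise of the 18. Of the transcription factors, Otx2, which specifies choroid plexus epithelium, had 6.91, 3.12 and 10.7 against 0.116, 0.831 and 0 and rose by 2.52 ± 0.38 (adjusted p = 0.0414), and Msx1 had 14.9, 8.63 and 16.3 against 3.78, 5.76 and 4.04 without passing (1.34 ± 0.24, adjusted p = 0.0566).

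**Figure D2:**
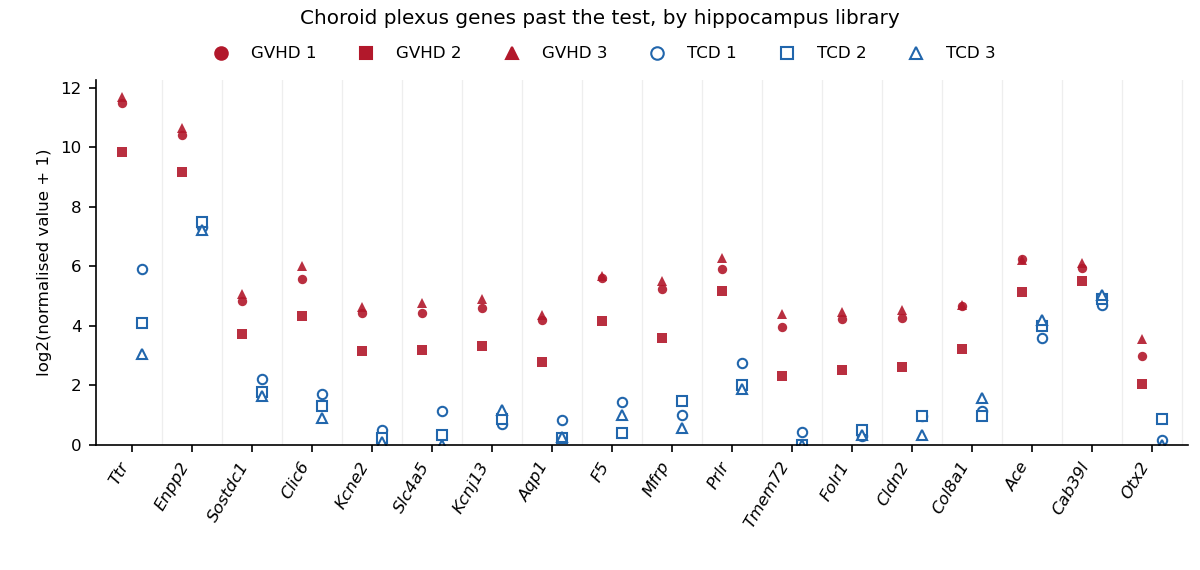
Normalised value of the 18 choroid plexus genes that rose (x axis, ordered by list and fold change) on a log2(value + 1) scale (y axis), for each GVHD library (filled) and TCD library (open). In every gene the 3 GVHD libraries lie above the 3 TCD libraries and GVHD 2 is the lowest GVHD library, for example 912 against 2867 and 3278 for Ttr.

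Tissue that borders the choroid plexus was measured with other lists. All 8 tested of 12 ependymal genes, which serve the motile cilia lining the ventricle, were higher in GVHD (median 0.73, and 0.37 without GVHD 3). Of these, 3 did not overlap between the groups, against 10.8% of all tested genes, and none passed. Through the GVHD libraries alone, 2 of the 8 reached the filter and so had to be higher there. The other 6 had a median of 0.69. Dnah6, an axonemal dynein, had 6.697, 5.45 and 11.2 against 5.12, 4.39 and 3.12. Meningeal fibroblast genes split, with 7 of 13 higher and a median of 0.14, and Dcn, decorin, had 95.5, 64.1 and 47.6 against 21.1, 75.1 and 61.3. Thalamic genes had a median of 0.15, with 9 of 13 higher. Tcf7l2, a transcription factor of thalamic neurons, had the smallest p of that list and lay the other way, at 2.59, 2.84 and 2.52 against 5.699, 4.87 and 4.53 (-0.72 ± 0.15, limma adjusted p = 0.0712). Zic1 and Prkcd, also in the thalamic list, were highest in GVHD 3 alone, at 18.4, 29.5 and 98.3 against 12.4, 23.99 and 14.4 and 18.7, 20.5 and 53.4 against 25.2, 20.5 and 13.3. Of these 3 lists the tested ependymal genes came nearest to the order of the choroid plexus genes. In 6 of these 8 genes GVHD 2 was the lowest GVHD library. Relative to the TCD mean, their median was 0.544, 0.289 and 1.215 in the GVHD libraries, so that GVHD 3 stood apart. Most ependymal genes under the filter lacked the order, with GVHD 1 as their lowest GVHD library.

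GVHD 2 was the lowest GVHD library in 37 of the 38 choroid plexus genes and in 40 of all 46 genes that rose. That was so in 33.6% of all tested genes and in 43.9% of those higher at an unadjusted p under 0.05. Of the 28 rises outside the choroid plexus lists, 22 had that order. They included the interferon-inducible Tgtp1 and Gbp9 and the ubiquitin ligase gene Trim56, whose values are given below. Another was Abca4, a lipid transporter best known from photoreceptors, at 16.96, 8.23 and 20 against 1.105, 0.831 and 0.856 (2.98 ± 0.28, limma adjusted p = 0.0143). Chosen after their values were seen, Col8a2, a collagen chain that partners Col8a1, had 13.4, 5.11 and 11.97 against 0.698, 0.772 and 0.978, and Sulf1, a heparan sulfate sulfatase, had 48.98, 20.3 and 54.03 against 4.54, 8.02 and 9.05. Col8a2 reached the filter through the GVHD libraries alone and so had to be higher there. Such genes made up 11 of all 46 that rose, 6 of them in the choroid plexus lists. Whether the rises outside those lists come from the choroid plexus was not tested. When the mean of the 38 choroid plexus genes was added to the model as a covariate, no gene passed (321 higher and 232 lower at an unadjusted p under 0.05). That covariate ran almost parallel to the groups, with library medians of 2.23, 1.25 and 2.44 against -0.02, 0.12 and -0.14, so the fit left little to separate them: the SE of Tgtp1 grew from 0.30 to 0.67.

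Interferon-inducible genes were also higher in GVHD. Immunity-related GTPases (IRG proteins) are induced by interferon-gamma and disrupt the vacuoles of intracellular parasites. All 8 tested members were higher in GVHD without overlap between the groups (10.8% of all tested genes were), with a median difference of 1.15, and 1 passed. That gene, Tgtp1, had values of 17.5, 10.8 and 20.7 against 3.87, 5.71 and 2.15 and rose by 1.84 ± 0.30 (SE; limma adjusted p = 0.0468), with every GVHD library above every TCD library. Its near-identical neighbour Tgtp2 had 15.5, 12.7 and 14.3 against 6.66, 6.76 and 2.798 (1.31 ± 0.26, adjusted p = 0.0696). Reads that fit both copies have to be divided between them, so the separate values are uncertain. Iigp1 had 18.96, 13.8 and 14.5 against 6.11, 8.37 and 2.57 (1.42 ± 0.32, adjusted p = 0.0843), Igtp had 29.4, 19.2 and 19.3 against 12.4, 14.1 and 4.34 (1.18 ± 0.36, adjusted p = 0.163), and Irgm1, which regulates the other IRG proteins, had 24.1, 17.9 and 30.2 against 15.6, 17.04 and 8.38 (0.80 ± 0.26, adjusted p = 0.182). In all of them TCD 3 was the lowest library, and in 7 of the 8 genes GVHD 2 was the lowest GVHD library.

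Because these GTPases stood higher together, the 250 bases before their start sites in RefSeq (mouse GRCm38.p6) were searched on both strands for the interferon-stimulated response element core, written as GAAA, any 2 bases and GAAA, and for the interferon-gamma activated site TTCNNNGAA. Of 8 IRG genes, 6 had a promoter in the table used; 5 of these 6 windows (83.3%) held the first motif and 4 (66.7%) the second, against 2.98% and 7.02% of all 32851 windows. Tgtp1, Tgtp2 and Igtp each hold an activated site directly followed by a response element, separated by 2 bases, and Irgm1 holds a pair of overlapping response elements. Capitals in the sequences below, written 5′ to 3′ on the gene's strand, mark those matches. The windows are chr11:48992247-48992496 (minus strand) for Tgtp1, chr11:49064213-49064462 (minus) for Tgtp2, chr11:58199306-58199555 (plus) for Igtp and chr11:48871421-48871670 (minus) for Irgm1, all ending at the base before the start.
Tgtp1: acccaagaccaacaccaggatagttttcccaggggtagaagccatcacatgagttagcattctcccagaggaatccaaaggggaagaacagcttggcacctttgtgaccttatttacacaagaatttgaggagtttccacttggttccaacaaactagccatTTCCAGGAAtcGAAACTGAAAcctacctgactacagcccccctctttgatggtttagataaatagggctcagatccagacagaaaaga
Tgtp2: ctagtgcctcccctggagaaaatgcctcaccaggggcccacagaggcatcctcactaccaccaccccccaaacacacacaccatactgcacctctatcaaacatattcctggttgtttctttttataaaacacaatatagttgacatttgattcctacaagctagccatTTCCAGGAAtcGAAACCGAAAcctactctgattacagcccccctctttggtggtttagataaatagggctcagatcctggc
Igtp: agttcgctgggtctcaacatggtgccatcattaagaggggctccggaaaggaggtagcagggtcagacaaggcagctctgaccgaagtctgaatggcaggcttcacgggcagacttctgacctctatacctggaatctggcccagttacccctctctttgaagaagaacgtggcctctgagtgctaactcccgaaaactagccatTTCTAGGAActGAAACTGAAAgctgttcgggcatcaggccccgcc
Irgm1: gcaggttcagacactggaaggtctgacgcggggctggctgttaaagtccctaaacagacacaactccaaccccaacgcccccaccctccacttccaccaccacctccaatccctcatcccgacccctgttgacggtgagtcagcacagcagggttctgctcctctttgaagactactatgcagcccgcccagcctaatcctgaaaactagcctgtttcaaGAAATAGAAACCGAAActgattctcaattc
The response element begins 77, 70 and 34 bases before the start of Tgtp1, Tgtp2 and Igtp. The same search found the response element in 4 of 5 windows of guanylate-binding proteins (80%), 9 of 23 of antiviral genes (39.1%), 3 of 10 of MHC class I heavy chains and B2m (30%) and none of 8 of MHC class II. In choroid plexus genes it was in 1 of 45 windows (2.22%), near the 2.98% of all windows. No window was available for Gbp9, Cd74, H2-Ab1 or Ciita. Some windows of the guanylate-binding protein, antiviral and MHC class II lists belong to genes without hippocampus values. The letters are a description of the windows and do not show binding.

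Guanylate-binding proteins (GBPs) are larger GTPases that coat bacteria and vacuoles in interferon-treated cells. All 7 tested members were higher in GVHD, 6 without overlap (10.8% of all tested genes), and 1 rose (0.319% of all). The median was 0.80, and 0.51 without TCD 3. Gbp9 had 8.05, 7.21 and 7.33 against 3.66, 3.504 and 2.26 and rose by 1.06 ± 0.17 (SE; limma adjusted p = 0.0454). Unlike the IRG genes it was nearly equal in the 3 GVHD libraries. Gbp2, a widely used reporter of interferon-gamma, had 17.8, 14.99 and 16.4 against 9.42, 10.6 and 4.16 (1.02 ± 0.27, adjusted p = 0.125), and Gbp8 had 5.89, 7.15 and 3.12 against 1.75, 2.32 and 0.612 (1.33 ± 0.33, adjusted p = 0.102). Tgtp1 passed without GVHD 2 or TCD 3 and did not pass without GVHD 1, GVHD 3, TCD 1 or TCD 2, with adjusted p from 0.0645 to 0.187. Gbp9 passed without TCD 1 or TCD 3 and did not pass without GVHD 1, GVHD 2, GVHD 3 or TCD 2 (0.105 to 0.187).

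MHC class I molecules show peptides from inside the cell to CD8 T cells. All 9 tested genes, the heavy chains and B2m, were higher in GVHD, 8 without overlap (10.8% of all tested genes), with a median of 0.89, and none passed. The median was 0.52 without TCD 3. Class I heavy chains are close copies of each other, so reads may be divided wrongly between them. H2-K1, a classical heavy chain, had 101, 91.2 and 94.2 against 56.9, 63.96 and 25.4 (1.06 ± 0.29, limma adjusted p = 0.132). B2m, the shared light chain, had 257, 211 and 244 against 164, 183 and 64.3 (0.92 ± 0.33, adjusted p = 0.215). The smallest p was that of the non-classical gene H2-T23, with 22.9, 20.9 and 23.6 against 11.2, 14.9 and 9.42 (0.89 ± 0.15, adjusted p = 0.0546). TCD 3 was the lowest library in all 9 genes and lay well apart from the other controls in H2-K1 and B2m, at 25.4 and 64.3. Of 13 genes that supply and load peptides, 12 were higher, 8 without overlap against the same 10.8%, with a median of 0.26. Tap1, a subunit of the transporter that brings peptides into the endoplasmic reticulum, had 14.9, 15.1 and 11.2 against 9.54, 9.22 and 5.01, Psmb9, an immunoproteasome subunit, had 6.39, 6.78 and 5.63 against 3.84, 4.62 and 1.83, and Nlrc5, the transactivator of class I genes, had 5.72, 5.73 and 2.87 against 2.56, 2.67 and 0.612. The chaperones Calr and Pdia3, which every cell uses, had differences of -0.08 and 0.02.

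Of the genes that sense interferon, Ifngr1 and Jak1 overlapped between the groups, while Irf9, further downstream, did not. Ifngr1, the ligand-binding chain for interferon-gamma, had 14.4, 14.8 and 17.9 against 15.6, 13.5 and 13.6 (0.13 ± 0.12), and Jak1, the receptor kinase, had 201, 205 and 199 against 234, 198 and 215 (-0.09 ± 0.08). Irf9, a transcription factor of the type I response, had 13.02, 12.2 and 12.3 against 8.43, 10.4 and 5.504 (0.60 ± 0.19, limma adjusted p = 0.174). In this list 15 of 17 genes were higher, 8 without overlap (10.8% of all tested genes), with a median of 0.25, and none passed. All 24 antiviral genes were higher, 13 without overlap against the same 10.8%, with a median of 0.48. Ifit3, which binds viral RNA complexes, had 21.8, 16.4 and 22.9 against 9.06, 14.4 and 6.02 (1.04 ± 0.26), and Bst2, which tethers budding viruses, had 11.8, 12.9 and 17.1 against 6.51, 7.66 and 2.26 (1.31 ± 0.33). Isg15, a ubiquitin-like protein and textbook type I interferon target, had 1.78, 1.42 and 2.35 against 1.16, 1.43 and 1.53 (0.25 ± 0.19), overlapping between the groups. Cxcl9, an interferon-gamma induced T cell chemokine, had 5.13, 3.24 and 3.23 against 2.38, 1.78 and 0.0612 (1.15 ± 0.40, adjusted p = 0.201).

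**Figure D3:**
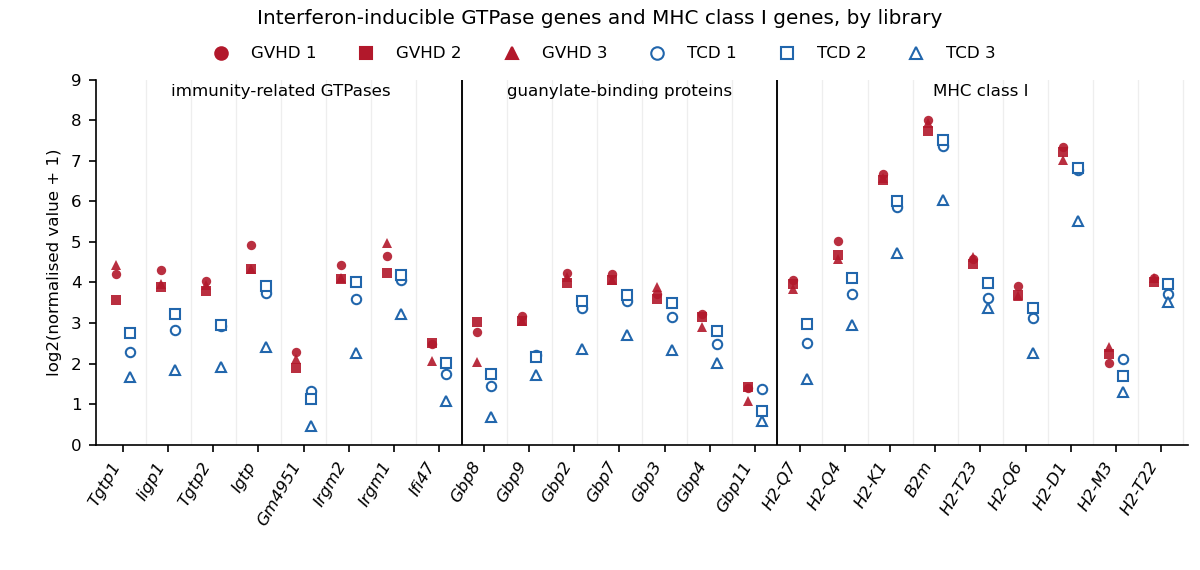
Normalised value of 8 immunity-related GTPase, 7 guanylate-binding protein and 9 MHC class I genes (x axis) on a log2(value + 1) scale (y axis), for each GVHD library (filled) and TCD library (open). The open triangles, TCD 3, are the lowest library in all 24 genes, as for B2m at 64.3, and GVHD lies above TCD without overlap in 22 genes.

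Over these 6 interferon and MHC class I lists, 75 of 78 genes were higher, 51 without overlap (10.8% of all tested genes), and 2 passed (0.319%). TCD 3 was the lowest of all 6 libraries in 59 of the 78 (75.6%), against 18.7% of all tested genes. The list median was 0.54, and 0.40 without TCD 3. Relative to the TCD mean, the median of the 78 genes was 0.62, 0.51 and 0.50 in the GVHD libraries and 0.11, 0.24 and -0.34 in the TCD libraries. The 3 GVHD libraries were thus closer to each other than the controls were. GVHD 2, with the least choroid plexus RNA of the GVHD libraries, was the lowest of them in 34 of the 78 genes and the highest in 23. With the choroid plexus covariate the median of these lists was 0.32, with Tgtp1 at 0.01 ± 0.67 and Gbp9 at 0.76 ± 0.53, neither past the test.

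MHC class II genes, which present peptides to CD4 T cells, were higher by a larger amount and varied widely between libraries. In this list 7 of 8 genes were higher, 4 without overlap (10.8% of all tested genes), with a median of 1.70, and none passed. Cd74, the invariant chain, had 156, 340.2 and 58.5 against 54.2, 35.9 and 9.97 (2.38 ± 0.69, limma adjusted p = 0.149), H2-Ab1 had 54.01, 111 and 17.2 against 16.6, 12.7 and 3.73 (2.21 ± 0.66, adjusted p = 0.156), and Ciita, the master transactivator, had 1.78, 2.84 and 1.11 against 0.523, 0.713 and 0.245 (0.93 ± 0.26, adjusted p = 0.139). GVHD 2 was the highest library in each of these. In Cd74 and H2-Ab1 GVHD 3 was close to TCD 1, and H2-Eb1 overlapped between the groups at 48.4, 97.7 and 12.96 against 16.4, 10.99 and 4.34. Ciita reached the filter through the GVHD libraries alone. Without GVHD 2 the list median was 1.34, and without GVHD 3 it was 2.75. The list medians relative to the TCD mean were 1.66, 2.68 and 0.59 in the GVHD libraries and 0.51, 0.36 and -0.80 in the TCD libraries.

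Macrophage genes followed the class II genes. Of 9 tested genes of marrow-derived and border macrophages, 8 were higher in GVHD (median 0.81). Of these, 2 did not overlap, near the 10.8% of all tested genes for so short a list, and none passed. Through the GVHD libraries alone, 1 of the 9 tested genes reached the filter and so had to be higher there. The other 8 tested genes had a median of 0.64. Lyz2, lysozyme, had 93.97, 202 and 40.8 against 41.1, 24.4 and 8.99 (2.08 ± 0.62, limma adjusted p = 0.154), Ms4a7 had 1.94, 7.61 and 0.997 against 1.69, 0.831 and 0.306 (0.99 ± 0.50) and Itgal, an integrin chain of leukocytes, had 6.48, 9.14 and 3.11 against 1.69, 3.09 and 1.65 (1.14 ± 0.33, adjusted p = 0.144). GVHD 2 was the highest GVHD library in 8 of the 9 genes, against 34.1% of all tested genes. Clec12a had 1.404, 5.34 and 1.47 against 2.501, 0.534 and 0.306, and in GVHD 3 Lyz2, Ms4a7 and Clec12a all lay within the range of the controls. Without GVHD 2 the list median was 0.21, and without TCD 3 it was 0.53. Ccr2 and Lyve1, markers of monocytes and of border macrophages, were under the filter at no more than 0.795 in any library. The other members of this list with values under the filter were all highest in GVHD 2, at up to 3.86 in that library.

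Genes of resting microglia showed the opposite order. P2ry12, the purinergic receptor of surveying microglia, had 33.2, 10.7 and 44.8 against 43.1, 44.3 and 48.7, so that GVHD 2 lay far below the other 5 libraries (-0.81 ± 0.42, limma adjusted p = 0.363). Siglech had 6.48, 0.341 and 8.68 against 8.26, 9.204 and 8.62 (-1.08 ± 0.62) and Tmem119 had 19.1, 11.1 and 17.5 against 24.1, 21.7 and 20.3 (-0.48 ± 0.18). GVHD 2 was the lowest GVHD library in 10 of 15 microglial genes, and the list median relative to the TCD mean was -0.19, -0.44 and 0.00 in the GVHD libraries and 0.13, 0.04 and -0.12 in the TCD libraries. Not all members did this: Cx3cr1, also expressed by macrophages, had 62.3, 71.5 and 59.8 against 73.2, 57.8 and 48.1, and Tgfbr1 had 39.4, 48.3 and 42.6 against 36.1, 33.6 and 28.5. GVHD 2 is 1 library, so this is a description without a test.

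Levels in the sorted cells are set beside these as means on their own scale and without a test. In donor macrophages of GVHD mice P2ry12 was at 1159 ± 282 (SD, n = 6) and in their host microglia at 12960 ± 1284 (n = 4), and Siglech at 156 ± 49.7 and 1194 ± 189. Ms4a7 was at 865 ± 147 in the donor macrophages and 22.1 ± 9.64 in the host microglia, Clec12a at 308 ± 65.9 and 5.57 ± 3.11, and Cd74 at 51770 ± 10950 and 6155 ± 3891. Tmem119, like P2ry12 and Siglech lowest in GVHD 2, was at 1331 ± 332 and 4372 ± 447. Cx3cr1, at 4291 ± 1318 and 8260 ± 564, and Tgfbr1, at 1626 ± 350.5 and 2398 ± 195, were highest in GVHD 2 of the GVHD libraries. P2ry12, Siglech, Tmem119, Cx3cr1 and Tgfbr1 thus all had the higher value in host microglia, by amounts that differed between the genes. Whether the makeup of donor and host cells differs in GVHD 2 was not tested.

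**Figure D4:**
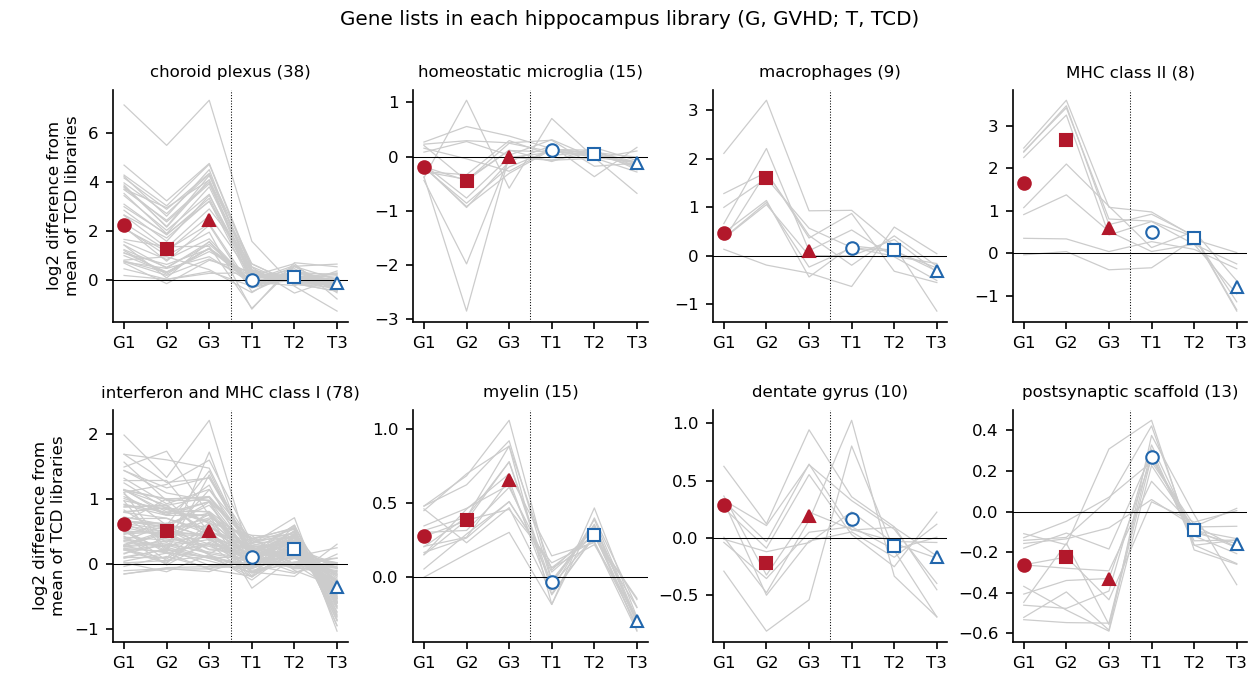
Log2 difference of each library from the mean of the TCD libraries (y axis, own scale in each panel) for 8 gene lists, with the number of genes in brackets. Grey lines link the 6 values of 1 gene, with no order among libraries, and symbols are list medians; GVHD 2 is lowest of the GVHD libraries for choroid plexus (1.25) and microglia (-0.44) and highest for macrophages (1.60) and MHC class II (2.68).

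Few T cell genes could be tested. Of 25 T and NK cell genes, 19 had no row in the table used, among them Cd3e, Cd3d, Cd4, Trac and Ifng, and 4 were tested. Cd8a, the CD8 co-receptor chain, had 2.59, 2.16 and 1.35 against 0.698, 0.0594 and 0.428 (1.12 ± 0.25, limma adjusted p = 0.0867), and Cxcr6, a receptor of tissue-resident T cells, had 1.57, 1.42 and 1.11 against 0.407, 0.119 and 0 (1.02 ± 0.22, adjusted p = 0.07701). Both reached the filter through the GVHD libraries alone, so that their higher values there follow from the filter, and neither passed. Lck, a T cell kinase, had 1.78, 1.99 and 0.939 against 0.698, 1.37 and 0.795 and overlapped.

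Complement genes were mostly higher, with 15 of 16 above 0 and 5 without overlap (10.8% of all tested genes), with a median of 0.55, and none passed. C3, the central component, had 9.34, 8.17 and 9.45 against 3.55, 4.57 and 0.917 (1.45 ± 0.35, limma adjusted p = 0.0962). C1qa, a microglial gene of the first component, had 52.2, 53.1 and 44.5 against 47.8, 34.4 and 29.5 (0.44 ± 0.16) and C4b, which reactive astrocytes make, had 140.2, 162 and 109.5 against 114, 84.4 and 37.2 (0.92 ± 0.35), both overlapping, with TCD 1 above GVHD 3. Among genes of activated microglia, Cd63, a lysosomal tetraspanin, missed the threshold narrowly at 58.4, 53.6 and 64.1 against 41.9, 40.3 and 39.6 (0.52 ± 0.09, adjusted p = 0.0501), and the lipid carrier Apoe had 1815, 2663 and 1578 against 1910, 1698 and 1360 (0.26 ± 0.20). Gfap, the astrocyte filament that marks gliosis, had 456, 605 and 473 against 613, 435 and 262 (0.30 ± 0.27), its highest value being in TCD 1.

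Astrocyte identity genes lay slightly lower, with 5 of 12 lower without overlap (13.2% of all tested genes were) and a median of -0.12, which was -0.06 under quantile normalisation. Aldoc, an astrocyte aldolase, had 523, 575 and 529.8 against 707, 722 and 621 (-0.33 ± 0.08, limma adjusted p = 0.109) and Gja1, the gap junction protein connexin 43, had 299, 282 and 298 against 356, 386 and 322 (-0.27 ± 0.08, adjusted p = 0.154). Gpr17, a receptor of differentiating oligodendrocyte precursors, had 35.3, 35.99 and 37.4 against 51.8, 49.7 and 44.2 (-0.41 ± 0.09, adjusted p = 0.0731). All 15 genes of myelin and mature oligodendrocytes were higher, 4 without overlap (10.8% of all tested genes), with a median of 0.43, and none passed. Opalin, a membrane protein of myelinating oligodendrocytes, had 20.8, 24.1 and 31.6 against 14.4, 18.7 and 11.6 (0.74 ± 0.19, adjusted p = 0.116). In all 15 myelin genes TCD 3 was the lowest of the 6 libraries and the list median of TCD 2 was above that of GVHD 1. Of the endothelium, Cldn5, the claudin of the blood-brain barrier, had 29.3, 29.01 and 24.9 against 42.5, 47.9 and 35.6 (-0.58 ± 0.12, adjusted p = 0.0742), whereas 15 endothelial genes had a median of -0.06. Vcam1, an adhesion molecule that captures leukocytes, had 47.3, 42.5 and 39.2 against 36.2, 37.95 and 27.6 (0.34 ± 0.13, adjusted p = 0.231).

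The genes that fell did so by small amounts. Of the 23, 20 fell by less than 1 on the log2 scale. Nrxn2, a presynaptic adhesion molecule that binds neuroligins across the synapse, had 259.8, 274 and 228 against 392, 370.3 and 365 (difference -0.57 ± 0.08, SE; limma adjusted p = 0.0366), with all GVHD libraries below all TCD libraries. Without GVHD 1, GVHD 2, GVHD 3 or TCD 2 its adjusted p was 0.0512 to 0.15. Cdk5r2, an activator of the neuronal kinase CDK5, had 193, 210 and 159.9 against 343, 290 and 301 (-0.73 ± 0.11, adjusted p = 0.0405). Slc30a3, the transporter that loads zinc into glutamatergic vesicles, had 57.9, 52.9 and 52.7 against 82, 73.99 and 89.7 (-0.58 ± 0.09, adjusted p = 0.0414), and Map1lc3a, an LC3 protein of autophagosomes, had 61.95, 68.3 and 53.2 against 105, 96.7 and 92.3 (-0.68 ± 0.10, adjusted p = 0.0394). Eef1a2, the translation elongation factor of mature neurons, had 813, 804 and 692 against 1142, 1115 and 1096 (-0.54 ± 0.08, adjusted p = 0.0414), and Rab1b, a GTPase of transport from the endoplasmic reticulum to the Golgi, had 105, 95.8 and 89.6 against 149, 143 and 134. Further named falls were Nat14, Tmem158, Dact3, Ptms, Rasl10b and Emc10, with differences from -0.87 to -0.55. Rpl9-ps6 and Atp6v0c-ps2, copies of Rpl9 and Atp6v0c by name, had differences of -0.81 and -0.53 and may share reads with their parent genes.

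**Figure D5:**
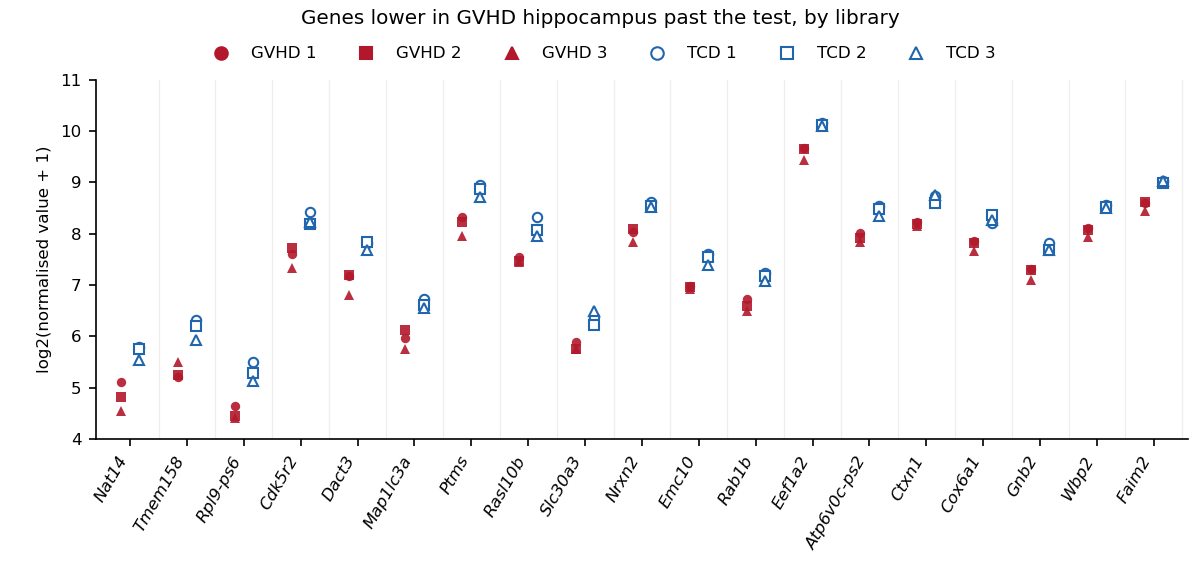
Normalised value of 19 named genes that fell (x axis, ordered by fold change) on a log2(value + 1) scale that starts at 4 (y axis), for each GVHD library (filled) and TCD library (open). All GVHD libraries lie below all TCD libraries in each gene, and GVHD 3 is the lowest library in most of them, as for Nrxn2 at 228.

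The fallen genes share a high GC content, a high level of expression and an order of libraries. Their median GC content, known for 21 of the 23, was 60.3%, against 49.8% over all tested genes and 47.1% for the genes that rose. Their median level on the log2 scale was 7.42, against 4.54 over all tested genes. Under quantile normalisation 9 genes fell, 8 of them among the 23. Of the 23, 20 were lowest in GVHD 3. The slope of expression on GC content also differed between libraries, at -0.04, -0.02 and -0.12 log2 units per 10 percentage points in the GVHD libraries and 0.09, 0.07 and 0.01 in the TCD libraries. With each library corrected in bins of GC content, an alternative chosen after seeing the data, 32 genes rose and 3 fell (Rpl9-ps6, Wbp2 and Faim2), and Nrxn2 had a difference of -0.32 (limma adjusted p = 0.0677). With a linear correction 37 rose and 20 fell, 16 of them among the 23, Nrxn2 included. The part of base composition or of expression level in the falls was not tested further.

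Synaptic genes as lists lay slightly lower. Of 18 presynaptic genes, 16 were lower, 9 without overlap (13.2% of all tested genes), and Nrxn2 alone passed. The median was -0.21, and -0.08 under quantile normalisation. GVHD 3 was the lowest of the 6 libraries in 13 of these genes. Syn1, which tethers vesicles, had 654, 679 and 575 against 825, 774 and 826 (-0.35 ± 0.08, limma adjusted p = 0.0959), Cplx1, which clamps their fusion, had 552, 585 and 462 against 700.1, 749 and 672 (-0.41 ± 0.10, adjusted p = 0.0962), and Slc17a7, the vesicular glutamate transporter, had 1221, 1273 and 1054 against 1677, 1336 and 1395 (-0.31 ± 0.11). Nrxn3, another neurexin, had 202, 217 and 266 against 278, 177 and 213 (0.05 ± 0.16) and overlapped. Of 13 postsynaptic genes, 12 were lower, 8 without overlap (13.2% of all tested genes), with a median of -0.31, and none passed. Nlgn2, the neuroligin of inhibitory synapses, had 233, 215 and 199.8 against 353, 282 and 274 (-0.48 ± 0.11, adjusted p = 0.0843), Nrgn, a calmodulin-binding protein of dendrites, had 612, 606 and 605 against 1096, 789 and 803 (-0.54 ± 0.12, adjusted p = 0.0867), and Camk2a, the kinase of long-term potentiation, had 3183, 3149 and 3341 against 5502, 4033 and 3796 (-0.44 ± 0.14). All 13 were highest in TCD 1 among the TCD libraries, as were 6 of the 7 CA3 genes and 5693 of all 14404 tested genes. Without TCD 1 the median of the postsynaptic genes was -0.23.

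Glutamate and GABA receptors were balanced, with 11 of 19 lower and a median of -0.01. Grin1, the obligate NMDA receptor subunit, had 462, 454 and 413 against 725, 545 and 540 (-0.43 ± 0.12, limma adjusted p = 0.133), whereas the AMPA receptor subunit Gria2 had 702, 668 and 758 against 713, 608 and 656 (0.11 ± 0.09). Interneuron genes had a median of -0.04, and Gad1, which makes GABA, had 384, 423 and 456 against 341, 366 and 370.2 (0.23 ± 0.08). Among 11 genes of neurogenesis the median was -0.07: Dcx, a marker of immature neurons, had 22.5, 25.6 and 20.9 against 12.6, 16.9 and 26.9 (0.34 ± 0.23) and Neurod1 had 25.2, 22.9 and 24.6 against 26.1, 26.1 and 24.6. Eomes, a marker of intermediate progenitors, had 1.08, 2.27 and 4.05 against 0.349, 0.831 and 0 (1.27 ± 0.35, adjusted p = 0.137), and reached the filter through the GVHD libraries alone. The dentate gyrus genes were all lowest in GVHD 2 of the GVHD libraries, C1ql2 among them at 38.6, 26.5 and 32.3 against 83.4, 43.8 and 28.99.

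A few rises had no interferon label and either lacked the choroid plexus order of libraries or, for Trim56, had it only slightly. In 4 of the 46, named after their values were seen, GVHD 2 was the highest GVHD library: Chn1os1, Cdr1, Fgl2 and Piezo1. Cdr1, an X-linked gene whose locus also gives rise to an antisense RNA, had 47.5, 96.7 and 59.1 against 16.9, 23.4 and 25.8 and rose by 1.53 ± 0.25 (limma adjusted p = 0.0454); the libraries are stranded per the labels, but the strand setting of the counting is not given in the sources used here, so the strand cannot be assigned. The same holds for Chn1os1, annotated antisense to Chn1, at 11.7, 18.8 and 11.1 against 1.601, 0.991 and 0. Fgl2, a fibrinogen-like protein made by macrophages and regulatory T cells, had 10.8, 13.8 and 8.39 against 4.65, 4.16 and 3.24 and rose by 1.24 ± 0.19 (adjusted p = 0.0414). Piezo1, a mechanically gated channel, had 11.2, 11.6 and 10.7 against 6.97, 5.91 and 6.502, nearly equal within each group, and rose by 0.71 ± 0.12 (adjusted p = 0.0482). Trim56, a ubiquitin ligase of innate immunity, also chosen after its values were seen and with GVHD 2 only slightly below the other GVHD libraries, had 19.4, 18.6 and 19.6 against 11.8, 11.2 and 11.01 and rose by 0.72 ± 0.09 (adjusted p = 0.0285).

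Of the 13 mitochondrially encoded messenger RNAs, mt-Atp8, a subunit of ATP synthase, was the only one past the test. It had 220.3, 286 and 337 against 97.8, 105 and 117 and rose by 1.38 ± 0.14 (SE; limma adjusted p = 0.016). It was the gene that rose without GVHD 1, and did not pass without GVHD 3 or TCD 2 (adjusted p 0.0854 and 0.0936). Its annotated span, 7766 to 7969 on the mitochondrial genome (GRCm38), overlaps the start of mt-Atp6, which had 9061, 8746 and 9362 against 8601, 9398 and 9618 (-0.02 ± 0.11), so the division of reads between them is uncertain. mt-Nd6, the only member on the light strand, had 1074, 1124 and 1106 against 720, 786 and 916 (0.45 ± 0.10, adjusted p = 0.0742), and mt-Cytb had 6960, 6631 and 6069 against 9761, 9749 and 8757 (-0.52 ± 0.11, adjusted p = 0.0815). These opposite differences sat beside a list median of -0.07 and a median of -0.01 for 20 nuclear genes of oxidative phosphorylation.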

How the data were processed

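Hippocampus RNA was sequenced as 6 stranded libraries, per the labels' protocols. The authors deposited a table of normalised counts, a signal scale whose scaling method is not given in the sources used here. The submitters' processing notes name cutadapt 1.9, STAR 2.5.2a, RSEM 1.2.30 and GRCm38. About 83.0% to 83.9% of the hippocampus values were whole multiples (tolerance 0.02) of 1 step per library, from which reads were estimated; whole reads were not recovered, so no count test was run. Gene symbols came from the GENCODE M21 annotation, and 182 of 15634 identifiers had no symbol.

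The 14404 genes that reached a value of 1 in 3 or more of the 6 libraries were tested on log2(value + 1) with limma 3.58.1 (R 4.3.3) with a mean-variance trend, GVHD against TCD without covariates, and p-values were adjusted by Benjamini-Hochberg over all tested genes. The fit was tested on simulated data. An exact permutation test of 3 against 3 cannot go below 0.1. Members were described through 52 lists of 680 genes, of which 577 were tested. The libraries and lists were chosen with earlier results of these data known.

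Named genes are the up to 15 largest changes in each direction among genes that passed without overlap, predicted genes passed over, the up to 5 members of each list with the smallest p, and Ttr, Cd74, Tgtp1, Gbp9 and Nrxn2. Of the genes named, 35 were chosen outside that rule after their values were seen. Alternatives were other pseudocounts and filters, TMM and quantile scaling, no trend, a replicate block, GC corrections, a choroid plexus covariate and leaving out each library. Same-numbered libraries did not deviate together, so numbers were not used to pair them. Promoter windows came from RefSeq (GRCm38.p6). The 13 sorted-cell libraries enter no test.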

Additional observations from a re-analysis of the deposited data

How the results depend on the processing

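The count of genes that rose was 30 at a pseudocount of 5, 28 with a filter of 5 and 30 under quantile normalisation, where 9 fell, against 46 and 23 as reported. Without the variance trend 0 genes rose and 0 fell (1184 and 1159 at an unadjusted p under 0.05), and with the choroid plexus covariate 0 and 0. Leaving out 1 library gave 0 to 59 genes that rose and 0 to 64 that fell, with fewer degrees of freedom in each fit. With the replicate number as a block, 15 genes rose and 1 fell. The deviations of same-numbered libraries had correlations of -0.163, -0.04 and -0.183, which gave no reason to pair the libraries by number. With 3 libraries per group these values cannot exclude pairing. With the GC bins, chosen after seeing the data, 3 genes fell. The counts at a pseudocount of 0.1 (41 and 20), without a filter (45 and 24), under TMM rescaling (48 and 31) and with a linear GC correction (37 and 20) were within 1.5 times those reported. The cause of the other shifts was not tested.

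Some named genes changed sign. With the choroid plexus covariate, which nearly coincides with the groups, the log2 differences were Atp2b3 -0.31, B2m -0.055, Cldn2 -0.50, Cp -0.52, Dnah6 -0.67, Folr1 -0.12, Gria2 -0.13, Ifit3 -0.13, Ifngr1 -0.15, Igf2 -0.93, Il34 0.15, Irgm1 -0.65, Isg15 -0.39, Jak1 0.011, Kl -0.65, Msx1 -0.26, Nrxn3 -0.16, Otx2 -0.14, Pdia3 -0.34, Prkcd -1.19, Prox1 -0.60, Slc12a2 -0.13, Slc17a7 0.044, Sulf1 -0.029, Tmem72 -0.15, Wfs1 0.31 and Zic1 -0.54. Of these, Cldn2, Folr1, Otx2, Sulf1 and Tmem72 had passed as reported. The GC correction gave Gria2 -0.070, Nrxn3 -0.001 and Pdia3 -0.041, and GC bins gave Pdia3 -0.021. Quantile normalisation gave Calr 0.022, Jak1 0.000 and mt-Atp6 0.24, and TMM rescaling changed no sign of a named gene. Leaving out 1 library moved differences near 0 across it, over ranges of -0.016 to 0.28 for Cx3cr1, -0.033 to 0.86 for Dcn, -0.025 to 0.59 for Gfap, -0.10 to 0.22 for Nrxn3, -0.046 to 0.086 for Pdia3 and -0.071 to 0.010 for mt-Atp6. Depth limits transcripts near 1 read, such as those of some T cell genes in some TCD libraries. In the GVHD libraries the tested T cell genes lay well above 1 read.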

Other observations

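Other gene lists showed small differences, and none of their genes passed the test. Immediate early genes, which neurons switch on with activity, had 11 of 16 higher and a median difference of 0.26, which was 0.15 without TCD 2 and 0.42 without TCD 3. Arc, which regulates AMPA receptors at active synapses, had 159, 131 and 148 against 98.6, 67.2 and 99.3 (0.74 ± 0.15, limma adjusted p = 0.0712), and Fos had 18.9, 15.3 and 15.2 against 3.08, 4.93 and 14.4 (1.27 ± 0.41, adjusted p = 0.175), with TCD 3 near the GVHD libraries. Egr4 lay the other way at 23.6, 18.1 and 13.96 against 27.7, 27.3 and 26.3 (-0.55 ± 0.16, adjusted p = 0.156). Genes responsive to glucocorticoids had a median of 0.04, clock genes -0.06, targets of p53 -0.01, heat shock and unfolded protein genes -0.09, cholesterol synthesis genes 0.09 and ribosomal protein genes 0.03. Among cytokines, Il34, a neuronal ligand of the microglial receptor Csf1r, had 32.2, 34.2 and 23.9 against 45.4, 40.2 and 48.6 (-0.57 ± 0.14, adjusted p = 0.0987), and Il33, an alarmin made by glia, had 68.9, 76.7 and 96.1 against 51, 68.1 and 51.4 (0.49 ± 0.15, adjusted p = 0.156). The receptor gene Csf1r had 74.8, 78.2 and 76.1 against 78.7, 56.1 and 58.5 (0.26 ± 0.12).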
